A study of Mus musculus with 8 samples.

Results

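MMERGLN-int is the name that the repeat annotation gives to the internal part of a family of mouse gammaretroviruses that are carried in the genome and passed on as DNA. The members were the rows of the deposited repeat table with that family name on assembled chromosomes, 88 of the 17857 elements listed, and none of its rows lay on a random scaffold. The family was chosen by its measured RNA levels, which earlier results from these libraries had shown to be higher without DNA methyltransferases and in the ground-state medium, so those differences are given here as a description with no test. The study profiled cytoplasmic poly(A) RNA from mouse embryonic stem cells in 8 libraries, 1 for each combination of line and medium. The J1 line has its DNA methyltransferases (DNMTs), and the line named TKO has 3 of them knocked out. Each was used with DAXX intact and with DAXX knocked out. All 4 lines were grown in regular medium or for 72 hours in medium with 2i and vitamin C (VC), called "2i" below for short. The 2i were PD0325901 (1 µM), which blocks MEK, and CHIR99021 (3 µM), which blocks GSK3b, and the vitamin C was given at 100 µg/ml. How many clones stand behind each knockout line is not given in the sources used here. For both DAXX-knockout J1 libraries the genotype label reads WT, and their group was taken from their titles.

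A gammaretroviral provirus carries the gag, pol and env genes between a pair of long terminal repeats (LTRs), and the LTRs hold the promoter. The listed elements cover the internal part only. The letters GLN stand for glutamine, after the transfer RNA that primes reverse transcription in this family. In embryonic stem cells such proviruses are known to be held silent by DNA methylation and by trimethylation of lysine 9 on histone H3, a mark set through KAP1 and SETDB1. DAXX is a chaperone that deposits histone H3.3 together with ATRX. Medium with 2i and vitamin C is known to lower DNA methylation in embryonic stem cells, 2i by reducing its upkeep and vitamin C as a cofactor of the TET enzymes.

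Library totals lay between 67.4 and 99.1 M reads. Each group is a lone library, and each factor was therefore followed over 4 pairs that share the other factors, and no value has an error from replicate cultures. Reads in LINE1 elements ranged from 40717 reads per M reads of the library total (RPM) in TKO DAXX-knockout 2i to 149039 RPM in TKO regular. That range bears on every ratio below and is taken up with the scaling of the libraries. Markers of the cell type, Daxx and the Dnmt genes were not examined, because the assembled loci carry no gene names.

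The 88 elements lie on 20 chromosomes, with 13 on chromosome 14, 11 on chromosome 12, 8 on chromosome 4 and 7 on the X. Their lengths ran from 5119 to 7663 bp. The commonest length was 7555 bp, and 37 members were within 15 bp of it. Of the 88, 84 had at least 1 read and 4 had none. Most reads fell on the upper part of the list: 45 elements had a mean of at least 1 RPKM (reads per kb of element and per M library reads) over the 8 libraries and held 99.2% of the 2137762 reads of the family. A further 11 had a mean of 0.1 to 1 RPKM and held 0.644%, and 28 had reads but a mean under 0.1 RPKM and held 0.166%. The lowest mean above the limit of 1 RPKM was 1.51 and the highest below it was 0.582. The copies of about the commonest length were 31 of the 45 abundant elements, 2 of the 11 in the middle and 4 of the 28 low ones. Long copies were thus found at every level, and 7 abundant copies were 6479 bp or shorter, as the plot of length against level shows. Copies of 1 family resemble each other closely, and how reads that match several of them were counted is not given in the sources used here. Copies may therefore share reads, and they are not independent measurements.

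**Figure D1:**
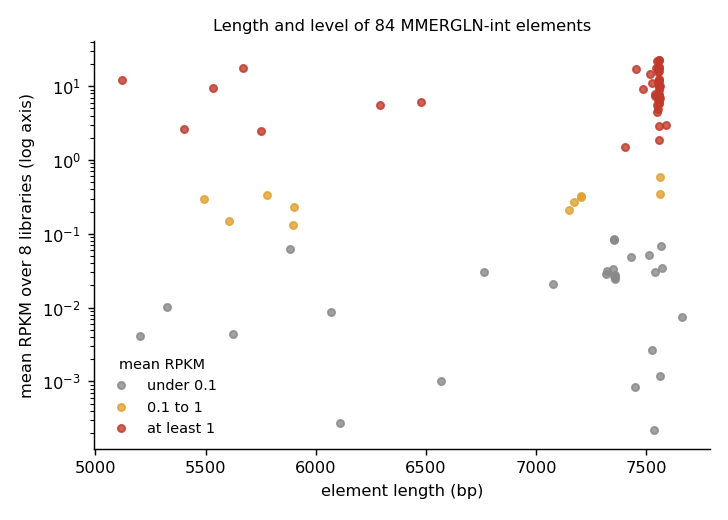
Length of each of the 84 MMERGLN-int elements with a read (x axis, bp) against its mean RPKM over the 8 libraries (y axis, log scale), coloured by level. The 45 elements at or above 1 RPKM are mostly near 7555 bp, and elements under 0.1 RPKM run from 5203 to 7663 bp.

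Summed over its elements, the family spanned a 45.3-fold range between libraries. It was lowest in J1 regular, at 230.1 RPM (17679 reads). J1 DAXX-knockout regular had 316 RPM and J1 2i had 717 RPM. TKO DAXX-knockout regular, at 2098 RPM, and J1 DAXX-knockout 2i, at 2761 RPM, came next, followed by TKO regular at 3106 RPM. The highest were TKO DAXX-knockout 2i at 7356 RPM and TKO 2i at 10417 RPM. The J1 and TKO libraries overlapped in this order by 1 library, J1 DAXX-knockout 2i, which stood above TKO DAXX-knockout regular. In bulk RNA, fewer expressing cells and less RNA per cell cannot be told apart. The family made up 0.661% of the reads in listed LTR elements in J1 regular (95% exact binomial interval 0.651 to 0.671%) and 23.6% in TKO 2i (23.598 to 23.69%), and these intervals cover counting error only. Among the LTR families it ranked 6th by RPM in J1 regular and 3rd in TKO 2i.

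**Figure D2:**
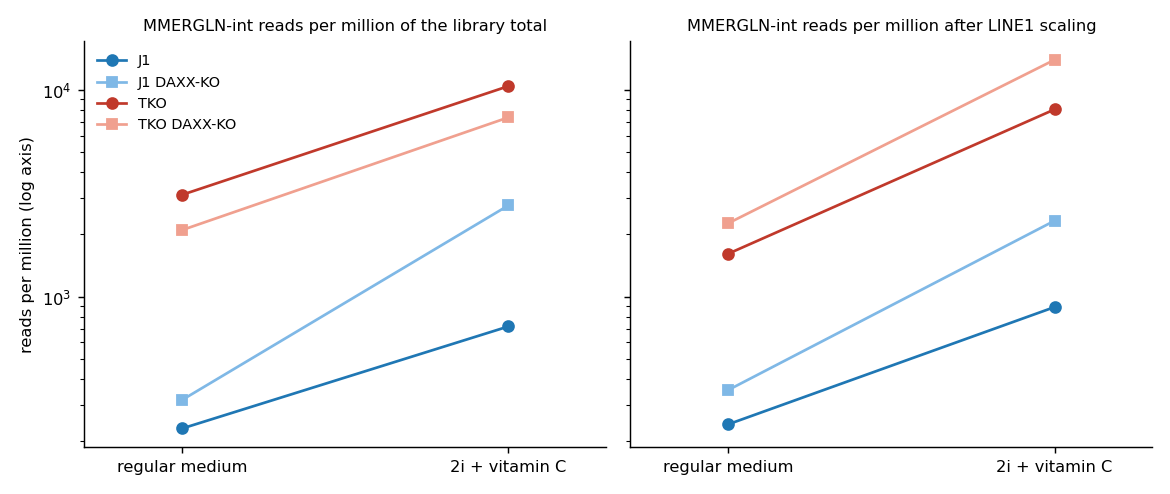
MMERGLN-int read sums in regular medium and in 2i plus vitamin C (y axis, RPM, log scale), with lines joining the 2 libraries of each cell line, relative to the library total (left) and after scaling to LINE1 reads (right). Each point is 1 library, and all 4 lines are higher in 2i in both panels. TKO DAXX-knockout lies under TKO on the left, with 7356 against 10417 RPM in 2i, and above it on the right.

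Loss of the DNMTs went with more MMERGLN-int RNA in each of the 4 pairs. The TKO to J1 ratio was 13.5 in regular medium and 14.5 in 2i with DAXX intact, and 6.63 and 2.66 with DAXX knocked out. The mean log2 ratio was 2.94 ± 1.14 (SD of 4 pairs). Of the 45 abundant elements 44 were at least 2-fold higher in TKO in each of the pairs with DAXX intact. Their median ratio was 11.1 in regular medium and 14.3 with 2i, and 6.33 and 2.70 in the DAXX-knockout lines. Ratios of single elements are given on the scale of RPKM + 0.1, which understates them where levels are low. This includes abundant elements in J1 regular, whose median was 0.637 RPKM. Of the 84 members with reads, 53 were at least 2-fold higher in TKO regular, beside 23.2% of all 16046 elements with reads off the random scaffolds. In 2i there were 54, beside 9.55%. In the DAXX-knockout lines there were 50 in regular medium, beside 1.85%, and 49 in 2i, beside 0.505%. In all 4 pairs at once 46 members passed this fold, as did 0.318% of all elements. These 46 were 46 of the 51 elements in the table that did so. Because these contrasts chose the family, nothing is read from the shares. The abundant class was set by the mean over the same 8 libraries. At least 1 RPKM was reached by 5 members in J1 regular, 45 in TKO regular and 47 in TKO 2i. Counts and medians of abundant elements in these pairs are thus partly built into the class, and nothing is read from them either.

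Medium with 2i and vitamin C went with more MMERGLN-int RNA in each of the 4 lines. The ratio of 2i to regular medium was 3.12 in J1, 3.35 in TKO and 3.51 in TKO DAXX-knockout, and 8.73 in J1 DAXX-knockout. The mean log2 ratio was 2.08 ± 0.70 (SD of 4 pairs). Per library total the first 3 of these lines differed little from each other and J1 DAXX-knockout stood above them. Under LINE1 scaling the first 3 lay apart, with 3.69 in J1, 4.99 in TKO and 6.175 in TKO DAXX-knockout. J1 DAXX-knockout was still the highest there, at 6.59, by a small margin. Under TMM scaling it was at 7.44, against 3.71 in J1, 5.31 in TKO and 4.725 in TKO DAXX-knockout. Among the 45 abundant elements 44 were higher in 2i in every line, with median ratios of 2.84 in J1, 3.53 in TKO, 3.54 in TKO DAXX-knockout and 8.08 in J1 DAXX-knockout. The members at least 2-fold higher were 44 in J1, beside 0.555% of all elements, and 49 in TKO, beside 0.374%. In TKO DAXX-knockout they were 46, beside 0.467%, and in J1 DAXX-knockout 48, beside 5.85%. In all 4 lines at once 43 members passed this fold, beside 0.28% of all elements, and they were 43 of the 45 elements that did so. These contrasts chose the family too, and the same libraries set the abundant class, so its counts and medians are likewise partly built in.

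Loss of DAXX had ratios on both sides of 1. In J1 the family was higher without DAXX, 1.37 times in regular medium and 3.85 times in 2i. In TKO it was at 0.675 and 0.706 of its level with DAXX intact per library total, and above it under the other scalings given below. In J1 2i 47 members were at least 2-fold higher without DAXX, beside 9.33% of all elements, while in J1 regular there were 0, beside 4.18%. In TKO 2 members were at least 2-fold lower in regular medium, beside 32.3% of all elements, and 3 in 2i, beside 40.9%. No member was at least 2-fold higher without DAXX in all 4 pairs, beside 0.673% of all elements. The lower values in TKO moved with the table as a whole. The median log2 ratio of all elements was −0.83 in TKO regular and −0.81 in TKO 2i, against −0.57 and −0.50 for the family, and whether the family's own values have another part in them was not tested. In J1 the median over all elements was −0.011 in regular medium and 0.28 in 2i, against 0.46 and 1.95 for the family. Per library total, all 45 abundant elements were lower without DAXX in both TKO pairs, a direction that turns under the other scalings given below. In each J1 pair 44 of the 45 were higher, the exceptions being a copy on chromosome 11 from 90828587 to 90834876 in regular medium and a copy on chromosome 4 in 2i. These libraries also set the abundant class, and its copies are not replicates, so nothing is read from these counts.

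**Figure D3:**
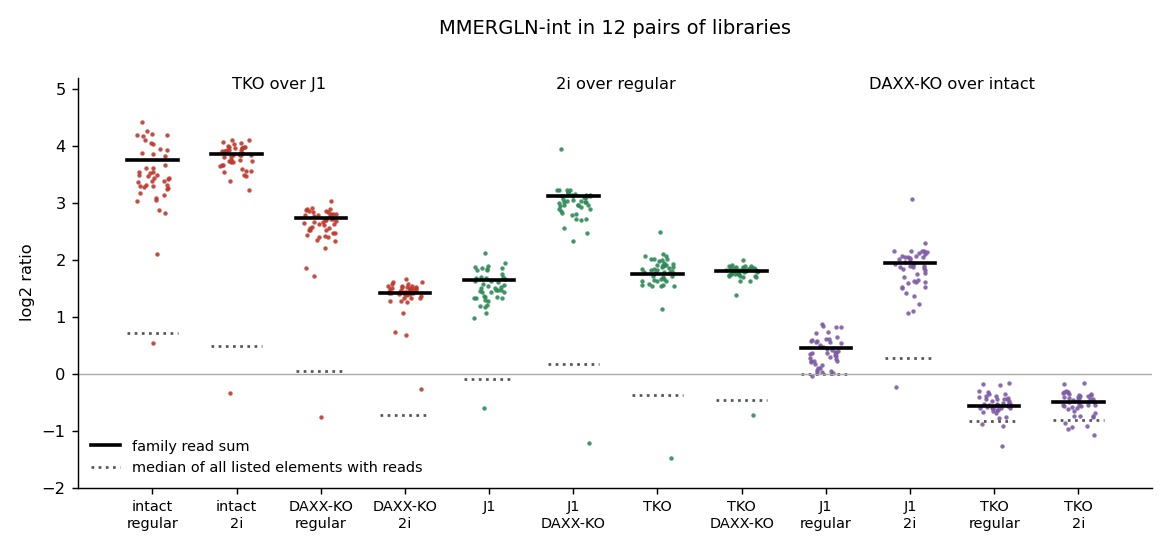
Log2 ratio (y axis) of each of the 45 abundant MMERGLN-int elements (points, RPKM + 0.1) in the 12 pairs of libraries (x axis), with the family read sum (black bar) and the median of all listed elements with reads (dotted). Most points lie on the same side of 0 as the family bar, with 1 element on chromosome 4 far below it in the pairs for 2i, and the family bars for DAXX knockout lie above 0 in J1 and, per library total but not under the other scalings, below 0 in TKO.

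How the changes combined was described by setting each doubly changed library against the product of the single changes. The values here are per library total, and other scalings are given below. With DAXX intact, DNMT loss (13.5-fold) and 2i (3.12-fold) would multiply to 42.1-fold over J1 regular, and TKO 2i was at 45.3-fold, or 1.076 times the product. Of the 45 abundant elements 33 were above their own product and 12 below it, on the scale of RPKM + 0.1. In J1 regular these elements had a median of 0.637 RPKM and a lowest value of 0.0895. The added 0.1 therefore shifts some of them across their product, and nothing is read from this split. In J1, DAXX loss and 2i would multiply to 4.28-fold, and J1 DAXX-knockout 2i was at 12.002-fold, 2.80 times the product, with 44 of 45 abundant elements above theirs. In TKO the same pair of changes gave 1.05 times the product, with 22 elements above and 23 below. DAXX loss and DNMT loss gave 0.491 of their product in regular medium, with 45 of 45 elements below it, and 0.183 in 2i, with 44 below it. All 3 single changes would multiply to 57.8-fold over J1 regular, and TKO DAXX-knockout 2i was at 32.0-fold. Under LINE1 scaling this library was above that product instead, as given below. With DAXX knocked out, DNMT loss and 2i gave 0.402 of their product. These statements share libraries and are not independent, and J1 DAXX-knockout 2i enters 3 of the 6 that concern a pair of changes. The same 8 libraries set the abundant class, and its copies may share reads and are not replicates. Nothing is therefore read from the counts of elements above or below their product.

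A pair of these interactions was tested in edgeR's quasi-likelihood test of family sums, with 44 families and Benjamini-Hochberg adjustment. The residual of these fits holds the other interactions as well as noise. The change with 2i differed between TKO and J1 by log2 −0.83 with an adjusted p of 0.827, and between DAXX-knockout and intact lines by 0.95 with an adjusted p of 0.967. No family was called in either test by edgeR. An unadjusted p under 0.05 was found for 0 families in both tests by edgeR, and for 2 and 1 families by DESeq2, which called 0 in both. At the level of elements 56 members passed the filter at a mean of 0.1 RPKM and 0 were called in either test, beside 0% of the 11322 elements tested. An unadjusted p under 0.05 was found for 1 of the 56 in each test, and for 44 and 14 of all elements, and DESeq2 called 0 in both. A p that misses the threshold does not show that the medium acted alike in these lines. Without J1 DAXX-knockout 2i the fitted differences changed sign, to 0.51 and −0.29.

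The size of the DAXX ratios depended on what the libraries were scaled to. Under scaling to LINE1 reads the family was higher without DAXX in 4 of 4 pairs, 1.40- to 2.62-fold, and this held under TMM (1.15- to 2.48-fold) and median scaling (1.42- to 2.66-fold) too. The lower values in TKO were thus seen only per library total. LINE1, TMM and median scaling all rest on reads of the same listed repeats, so they are not independent of each other. Reads in LINE1 elements themselves ranged from 40717 to 149039 RPM. TKO to J1 ratios stayed above 1 in 4 of 4 pairs and lay closer together, from 6.004 to 9.04 under LINE1 scaling against 2.66 to 14.5 per library total. Under it the excess of J1 DAXX-knockout 2i over its product was 1.79 instead of 2.80, DAXX and DNMT loss gave 0.959 of their product in regular medium and 0.664 in 2i, and DNMT loss and 2i in the DAXX-knockout lines gave 0.937. Under TMM a pair of these turned, to 1.045 for DAXX and DNMT loss in regular medium and 0.889 for DAXX loss and 2i in TKO. DNMT loss and 2i with DAXX intact, at 1.076 times their product per library total, were above it by more under the other scalings. They gave 1.35 under LINE1, 1.40 under median and 1.43 under TMM scaling. Under LINE1 scaling TKO DAXX-knockout 2i in place of TKO 2i was the highest library. It was at 13963 scaled RPM, against 241 in J1 regular. The single changes from J1 regular were then 6.68-fold for DNMT loss, 3.69-fold for 2i and 1.465-fold for DAXX loss. TKO DAXX-knockout 2i was thus above the product of all 3 changes under this scaling, and below it per library total. Which scaling holds was not tested.

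The copies ranked alike in the 8 libraries, though the most abundant copy was not the same one throughout. Over the 28 pairs of libraries the Spearman correlation of RPKM across the 45 abundant elements ranged from 0.805 to 0.991, a description over copies that share libraries and possibly reads. In all, 5 different copies held the top place in at least 1 library. The copy with the highest sum lies on chromosome 1 from 83978112 to 83985667 (build mm9, positions as deposited). In J1 it was at 1.14 RPKM in regular medium and 4.26 with 2i, and without DAXX at 1.93 and 18.8. In TKO it was at 22.2 RPKM in regular medium and 65.6 with 2i, and without DAXX at 14.7 and 52.7. A copy on chromosome 6 from 58767666 to 58775223 followed it closely, with 0.98 RPKM in J1 regular and 67.2 in TKO 2i. Copies on chromosome 15 from 83024618 to 83032173 and on chromosome 3 from 55382347 to 55389890 reached 54.8 and 53.3 RPKM in TKO 2i, from 1.15 and 0.91 in J1 regular. The shortest member, 5119 bp on chromosome 4 from 39332565 to 39337684, behaved like the long copies, with 0.64 RPKM in J1 regular, 10.1 in J1 DAXX-knockout 2i, 12.2 in TKO regular and 35.8 in TKO 2i. No copy dominated the family: the top element held between 4.86% and 8.21% of the family's reads in a library and the top 5 between 21.2% and 26.03%.

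**Figure D4:**
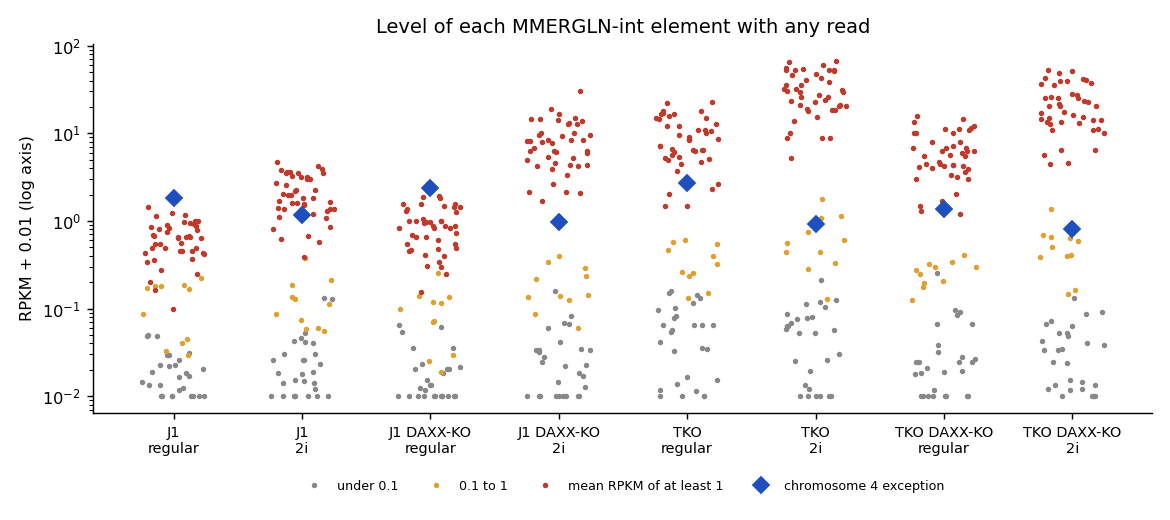
RPKM + 0.01 (y axis, log scale) of each MMERGLN-int element with any read in the 8 libraries (x axis), coloured by mean RPKM, with the chromosome 4 element that differed from the rest as a diamond. The abundant elements shift as a block between libraries, with medians from 0.637 RPKM in J1 regular to 29.3 in TKO 2i, while the diamond is the highest point in J1 regular and the lowest abundant one in TKO 2i.

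The copy on chromosome 10 from 26647207 to 26654754 had the top element's share of 8.21%, in J1 DAXX-knockout 2i. It was at 30.04 RPKM there, above the 18.8 RPKM of the copy on chromosome 1, and in the other 7 libraries it was below that copy, with 0.96 against 1.14 in J1 regular, 3.49 against 4.26 in J1 2i and 59.5 against 65.6 in TKO 2i. Its ratio without DAXX was 8.39 in J1 2i, the highest of the 45, where the next was 4.93 and the median 3.70. In TKO 2i its ratio of 0.813 was among the upper values of a range from 0.477 to 0.890. By summed level it is among the 5 highest copies, which the rule names, but its DAXX ratio was singled out after its values were seen.

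The lowest DAXX ratio in TKO 2i among the 45 copies belonged to 1 on chromosome 14 from 54183741 to 54191258, which went from 53.3 RPKM to 25.3 (0.477). In J1 2i it went from 4.63 to 10.1 RPKM without DAXX, a ratio of 2.14, also low among the copies. Copies on chromosome 4 from 94921375 to 94928927, on chromosome 9 from 25663244 to 25670799 and on the X from 73517562 to 73525118, chosen after their values were seen, had ratios of 2.11, 2.59 and 2.34 in J1 2i and 0.532, 0.601 and 0.546 in TKO 2i. Copies on chromosome 17 from 36237879 to 36243630 and on chromosome 14 from 56597999 to 56605547 had 0.511 and 0.525 in TKO 2i, and ranked 9th and 7th lowest of 45 in J1 2i. Across the 45 copies the DAXX ratios in 2i had a Pearson r of 0.383 and a Spearman rho of 0.702 between J1 and TKO, 4 libraries of which none is shared. Without the chromosome 4 element described next they were 0.787 and 0.821 over 44 copies. In regular medium they were 0.171 and 0.0862. These are descriptions over copies that share their libraries.

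**Figure D5:**
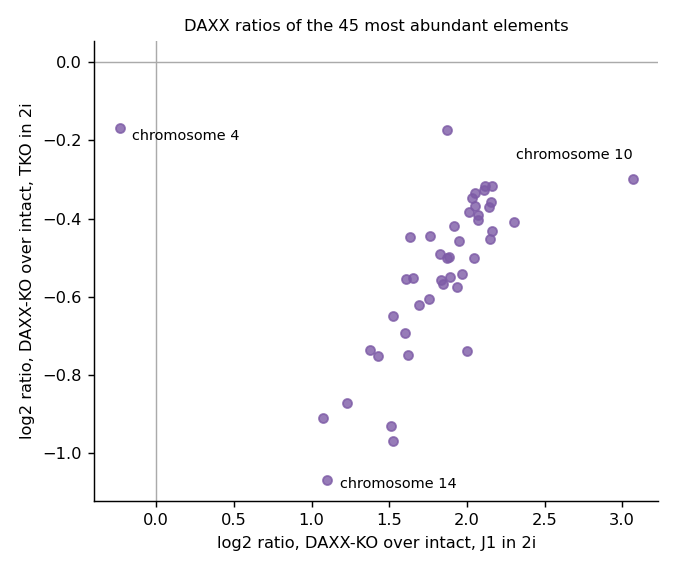
Log2 ratio of DAXX-knockout over intact in 2i for each of the 45 abundant elements, in J1 (x axis) and in TKO (y axis), from RPKM + 0.1. All but the chromosome 4 element lie right of 0 on the x axis and every element lies below 0 on the y axis per library total, a direction that turns under the other scalings, and copies with higher ratios in J1 tend to be higher in TKO.

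One abundant copy went against the family. It lies on chromosome 4 from 11103616 to 11111018. In J1 it was at 1.82 RPKM in regular medium and 1.16 with 2i, and without DAXX at 2.38 and 0.97. In TKO it was at 2.69 RPKM in regular medium and 0.90 with 2i, and without DAXX at 1.37 and 0.79. Per library total it was lower in 2i in all 4 lines, with ratios of 0.659 in J1, 0.360 in TKO, and 0.433 and 0.607 in the same lines without DAXX. Its TKO to J1 ratios were 1.46 in regular medium and 0.796 in 2i, and 0.594 and 0.834 with DAXX knocked out. In J1 regular it was the most abundant copy of all, and in TKO 2i it was the lowest of the 45. Under LINE1 scaling, here without a pseudocount, it was lower in 2i in 3 of the 4 lines, with 0.758 in J1, 0.5001 in TKO and 0.308 in J1 DAXX-knockout, and at 1.019 in TKO DAXX-knockout. Its TKO to J1 ratios turned in a pair of cases, to 0.734 in regular medium with DAXX intact and to 1.84 in 2i without DAXX. Its mean log2 ratios, −0.20 for DNMT and −1.001 for 2i per library total, were −0.34 and −0.71 under LINE1 scaling.

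Over the 11 elements in the middle the median TKO to J1 ratio, here without a pseudocount because it shrinks the ratios of low elements, was 3.65 in regular medium and 7.31 with 2i. In the DAXX-knockout lines it was 2.98 and 2.58. The median ratio for 2i was 1.548 in J1 and 1.11 in TKO, and 1.36 and 1.901 in the same lines without DAXX. Under LINE1 scaling the median TKO to J1 ratio was 1.81 in regular medium and 4.545 with 2i, and 2.875 and 5.815 in the DAXX-knockout lines. The median ratio for 2i was then 1.83 in J1 and 1.655 in TKO, and 1.02 and 3.35 in the same lines without DAXX. The order of these pairs thus depended on the scaling. The 11 elements held 13758 reads in all libraries together, which limits these values more than those of the abundant copies. A copy on chromosome 7 from 13754293 to 13761856, the highest of them, rose from 0.08 RPKM in J1 regular to 1.75 in TKO 2i. An element on chromosome 12 from 82525503 to 82530994 varied little, from 0.21 to 0.40 RPKM, as did 1 on chromosome 1 from 180153249 to 180158857, from 0.11 to 0.20 RPKM. By the rule that names elements whose mean ratio ran against the family for DNMT or medium, 15 of the 84 were found: the abundant copy on chromosome 4, 3 in the middle and 11 low ones with at most 254 reads in all libraries together. The middle 3 were the chromosome 1 element just given, with a mean log2 TKO to J1 ratio of −0.040, and copies on chromosome 12 from 23313268 to 23320440 and from 24711149 to 24718298, with mean log2 ratios for 2i of −0.046 and −0.21. Under LINE1 scaling 13 elements ran against the family, the abundant copy on chromosome 4 again among them, and neither of these 2 copies on chromosome 12. Of the low ones, the element on chromosome 1 from 78494119 to 78500000 had the strongest, −0.65 for 2i, with 0.15 RPKM in TKO regular and 0.24 in TKO DAXX-knockout regular against 0.02 and 0.00 in 2i. The other 10 low ones lie on chromosomes 3, 5, 12, 14, 17 and X, and the depth does not support a ratio for them. The lowest members with any read had 1 read over all 8 libraries, on chromosome 17 from 61614091 to 61620200 and on chromosome 18 from 19008183 to 19015716, followed by 2 on chromosome 17 with 4 reads.

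Some of the members below the abundant ones lie near each other. On chromosome 12, 8 members lie between 17804352 and 24718298, with means of 0.00418 to 0.328 RPKM. Those starting at 19543316, 20128460, 23313268 and 24711149 are among the middle elements above and hold most of the group's reads. The summed level of the 8 in J1 was 5.09 RPM in regular medium and 2.33 with 2i, and without DAXX 3.65 and 3.76. In TKO it was 15.1 RPM in regular medium and 14.5 with 2i, and without DAXX 8.83 and 16.3. The 4 TKO libraries were all above the 4 J1 libraries in this group, also under the other scalings. The ratio of 2i to regular medium was 0.458 in J1, 0.956 in TKO, 1.03 in J1 DAXX-knockout and 1.84 in TKO DAXX-knockout, and under LINE1 scaling it turned in TKO, to 1.42, and in J1 DAXX-knockout, to 0.777. On chromosome 14, 9 members between 3272327 and 8234971 had 1.16 to 2.79 RPM in J1 and 1.93 to 5.29 RPM in TKO, and these ranges overlap. On chromosome 7, 3 members between 17937971 and 18163053 had no read in any library, which allows up to 3 reads each, or 0.0303 to 0.0445 RPM. The groups were formed from members within 2.5 Mb of the next, a distance chosen after the positions were seen.

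The authors' assembled loci gave another readout of the same libraries, in FPKM (fragments per kb and per M library fragments). Over the 8 libraries, 13 of the 88 members were overlapped by a locus of at least 1 FPKM in some library, and 36 of the 45 abundant ones never were. The copies on chromosomes 1, 6, 10 and 3 with the highest levels had no such locus in any library. Per library 4 to 9 members were overlapped, 4.55% to 10.2%, and 8.15% to 10.05% of the 2050 other LTR elements. The number was 4 in J1 regular and 9 in J1 2i, and 6 in TKO regular and 8 in TKO 2i. Without DAXX it was 4 in both media in J1, and 6 in regular medium and 7 in 2i in TKO. A locus of at most 20 kb overlapped 0 to 3 members per library, so most of these loci were wider. The 3 loci with the highest FPKM were all wide. A locus on chromosome 12 from 82460002 to 82634010 had 45.9 FPKM in TKO DAXX-knockout regular, and it encloses the element on that chromosome that varied little. Others were on chromosome 13 from 67690385 to 67830085, with 43.2 FPKM, and on chromosome 15 from 82984670 to 83035420, with 42.8 FPKM, in the same library. The element on chromosome 1 at 0.11 to 0.20 RPKM lay within a locus in all 8 libraries. Over the chromosome 4 copy that went against the family, loci of 1600 to 15621 bp were assembled in 5 libraries. The highest was 6.41 FPKM in TKO regular, from 11103107 to 11118728, and those of TKO 2i and TKO DAXX-knockout 2i had 2.66 and 2.18 FPKM. In J1 a locus of at least 1 FPKM was assembled in 2i (3.26 FPKM) and none in regular medium, and TKO DAXX-knockout likewise had one in 2i alone, whereas the RPKM of the copy was lower in 2i in both lines. Whether the assembly left out reads that match several places is not given in the sources used here.

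Most like MMERGLN-int over the 8 libraries were the families IAPEy-int, IAPLTR3-int and IAP-d-int, by the Pearson correlation of log2(RPM + 0.1) over 8 libraries among 44 families, with r of 0.968, 0.923 and 0.852. They are internal parts of intracisternal A-particle families, a different retrovirus class, and their mean levels were 4.72, 3.79 and 6.23 RPM against 3375 RPM for MMERGLN-int. All 3 were higher in TKO in 4 of 4 pairs, with IAPEy-int at 4.30 to 8.63. IAPEy-int (1.92 to 5.03) and IAPLTR3-int (1.06 to 2.03) were higher in 2i in 4 of 4 lines, and IAP-d-int in 3. The ratio for DAXX loss in TKO was 1.52 in regular medium and 1.19 in 2i for IAPEy-int. It was 0.585 and 0.681 for IAPLTR3-int and 1.74 and 0.890 for IAP-d-int, beside 0.675 and 0.706 for MMERGLN-int. In J1 DAXX-knockout the ratio for 2i was 5.03 in IAPEy-int, 1.502 in IAPLTR3-int and 3.09 in IAP-d-int, beside 8.73. Other internal parts of the ERV1 class, to which gammaretroviruses belong, looked different. RLTR4_MM-int, related to murine leukaemia virus, had TKO to J1 ratios of 1.98, 1.68, 1.43 and 0.713 and ratios for 2i of 1.38 in J1, 1.17 in TKO, 0.553 in J1 DAXX-knockout and 0.277 in TKO DAXX-knockout. MuRRS-int was higher in TKO in 4 of 4 pairs, with ratios of 2.06 to 9.45, and lower in 2i in 3 of 4 lines. RLTR6-int had TKO to J1 ratios of 1.09 to 1.60 and ratios for 2i of 0.749 to 1.09. MuRRS4-int, with 2 elements, reached 0.353 RPM at most, too little for ratios. All ratios of families given here are per library total. Under LINE1 scaling those of MMERGLN-int for DAXX loss in TKO were 1.40 in regular medium and 1.74 in 2i. A scaling multiplies every family in a pair of libraries by the same factor, so directions in the other families may turn too. Their ratios under other scalings are not given. The difference between MMERGLN-int and these families was not tested.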

How the data were processed

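The deposited repeat table gives, per the file headers, a read count and an RPKM for each element in each library, and the files per sample give FPKM of loci that the authors assembled in each library. The submitters' processing notes name TopHat, Bowtie2 2.2.4, Cufflinks, Cuffdiff and build mm9. The counter, the repeat annotation and the handling of reads with several matches are not given in the sources used here. Library totals were recovered from counts, RPKM and element lengths, and these totals gave back 100% of the authors' RPKM to within 0.011 in each library. RPM are reads per M reads of these totals. Element ratios used RPKM + 0.1. A floor of 3 reads was used where a member had none.

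The family, the lists and the tests were chosen with earlier results of these data known. Interactions were tested on the deposited counts by the quasi-likelihood method of edgeR 4.0.16 under R 4.3.3, with DNMT, medium and DAXX as covariates, all 8 libraries and 3 residual degrees of freedom, over families with a mean of at least 1 RPM and elements with a mean of at least 0.1 RPKM. Tests were two-sided at an adjusted p of 0.05. The code was tested on simulated data. DESeq2 1.42.0, limma 3.58.1, other scalings, filters, pseudocounts and the omission of each library were alternatives. LINE1 scaling used the reads of all LINE elements. TMM scaling used the sums of the repeat families tested, and median scaling the repeat elements with a mean of at least 0.1 RPKM. Assembled loci counted when they overlapped an element by at least 1 bp at 1 FPKM. The rule for named elements took the 5 highest and the 3 lowest with a read, those against the family's direction and the shortest, with the 3 most similar families, the ERV1 families and the 3 loci of highest FPKM. Copies outside it were chosen after their values were seen, whether or not this is said beside them. Tables were handled with pandas 2.3.3 under Python 3.11.15. An annotation of mm9 and its sequence were not used here.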

Additional observations from a re-analysis of the deposited data

Results flagged for a closer look

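The response of MMERGLN-int to DAXX loss ran one way in both J1 pairs and the other way in both TKO pairs when scaled to the library total. The mean log2 ratio was 1.20 in J1 and −0.53 in TKO, a difference of −1.74 (TKO minus J1). The difference was not tested here. Under LINE1 scaling it was −0.33, and both backgrounds were then higher without DAXX. The median of all elements also fell in both TKO pairs per library total, and its part in the result was not tested.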

How the results depend on the processing

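Each factor's mean log2 ratio kept its sign under the 6 planned changes of scaling, summary or elements. For the medium it was 1.24 in place of 2.08 when the median element replaced the read sum. Leaving out 1 library gave 2.63 to 3.45 for DNMT, 1.73 to 2.23 for the medium and −0.20 to 0.63 for DAXX, which turned without J1 2i or J1 DAXX-knockout 2i. Within TKO the DAXX value of −0.53 became 0.29 under TMM, 0.62 under median and 0.64 under LINE1 scaling, and −0.26 for the median element, while within J1 it stayed above 0. The difference in the medium's change between TKO and J1, −0.83, was 0.16 under median and 0.14 under LINE1 scaling, and −1.65 to 0.51 with 1 library left out. That between DAXX-knockout and intact lines, 0.95, was −0.29 to 1.74. Over 15 alternatives each their adjusted p ranged from 0.283 to 0.996 and from 0.0892 to 1.00. In edgeR, and in DESeq2, 0 members were called under every alternative, also with 1 library left out (0 to 0). At 4-fold 0 members passed in all 4 pairs for DNMT and 0 for the medium. With RPKM + 1 16 passed for the medium in place of 43. The larger pseudocount shrinks ratios where levels are low. This applies to the abundant copies too, whose median in J1 regular was 0.637 RPKM. Members overlapped by a locus were 8 at 5 FPKM and 27 within 10 kb, the latter chosen after seeing the data, in place of 13. No paired analysis was possible because the labels carry no replicate numbers that could form a block. The 4 pairs of each factor are matched on the other factors only. Without replicates, differences between cultures cannot be separated from the factors.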

Other observations

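A few members have an end at a multiple of 500000 in the deposited positions: on chromosome 14 from 114494467 to 114500000, on chromosome 1 from 78494119 to 78500000, and on chromosome 14 from 7500000 to 7506763. The last begins close after the end of another member, at 7498695.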
